A study of Saccharomyces cerevisiae with 6 samples.

Results

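The translation factors of Saccharomyces cerevisiae were followed in cultures of strain BY4742 held for 5 h with clioquinol (CQ) or with its solvent. The set comprised 37 genes for cytosolic initiation, elongation and termination factors, chosen by name as the textbook subunits of these complexes. The choice was made with earlier results of these data known. A gene was measured where the array annotation paired a probe set with that gene alone. This held for 35 of the 37, each with 1 probe set, out of 5449 genes measured in all, and all 35 lay above background on every array. TIF1 and TEF1 had no probe set under their own names. TIF2, TEF2 and EFT2 lay on probe sets whose names carry the maker's mark for shared sequence, so their values can include TIF1, TEF1 and EFT1, whose products are identical to theirs.

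Of the 6 cultures, 3 received 80 µM CQ and 3 received 1% DMSO, and each gave 1 Affymetrix GeneChip. Mid-log cells in the rich medium YPD were mixed with an equal volume of fresh YPD that carried the supplement. BY4742 is a haploid laboratory strain of mating type alpha, and both groups carry its deletions of LEU2, LYS2 and URA3 and its partial deletion of HIS3. CQ, a chlorinated and iodinated quinoline, chelates metals such as iron, copper and zinc. The labels call the samples of a group biological replicates and do not state how much DMSO the CQ cultures held, so an effect of DMSO cannot be told apart from one of CQ.

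Translation begins when eIF2, charged with GTP and the initiator tRNA, joins eIF1, eIF1A, eIF3 and eIF5 on the small ribosomal subunit, and when the cap-binding complex eIF4F brings in the mRNA. eIF2B recharges eIF2 with GTP, and it is the step that the kinase Gcn2 restrains in amino acid starvation. In yeast, eEF1A delivers aminoacyl-tRNA, eEF1B recharges eEF1A, eEF2 drives translocation, the fungal ATPase eEF3 assists release of deacylated tRNA, and eRF1 with eRF3 ends the chain.

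Median intensities were 890 to 926 with DMSO and 977 to 1008 with CQ, so each CQ array had a somewhat higher median than each DMSO array. Background, the level under which 95% of the probe sets for fission yeast genes fell on an array, lay at 41.8 to 59.8. LEU2, LYS2 and URA3 read 7.38 to 58.6, below background on every array. HIS3 read 1530.1 to 1703 with DMSO and 732 to 1119.5 with CQ. Whether its probe set lies outside the deleted stretch is not known here, so HIS3 checks nothing. The alpha-cell genes MF(ALPHA)1, MF(ALPHA)2, STE3 and SAG1 read 851 to 7313 on the 6 arrays, and the a-cell genes MFA1, MFA2, STE2, BAR1 and AGA2 46.8 to 253, but the a-cell exporter gene STE6 read 458 to 552. These markers moved with treatment: all 4 alpha-cell genes fell (median log2 difference -0.98, with SAG1 at -1.28 and MF(ALPHA)1 at -1.21), and 4 of 6 a-cell genes rose (median 0.56, with MFA1 at 1.31 and MFA2 at 0.81). The part of these shifts in the results below was not tested. The 3' to 5' index, the mean log2 ratio of 3' to 5' control probe sets over 6 yeast genes and a sign of RNA integrity, was higher on each CQ array (1.30, 1.53 and 1.15) than on each DMSO array (0.96, 0.96 and 0.88). CQ replicate 2, with the highest index, also stood apart in the bioB hybridisation control, at 1188 against 246 to 549 on the other arrays.

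Most translation factor genes were lower with CQ, and 3 were higher. Of the 35 measured, 27 fell, 3 rose and 5 did not pass an adjusted p of 0.05 in limma's moderated test of log2(intensity + 16), fitted and adjusted over all genes. Among all genes 31.9% fell, 36.1% rose and 68% were called in either direction. The median log2 difference, CQ minus DMSO, was -0.73 for the factors and 0.02 for all genes. Decreases of at least 2-fold occurred in 7 factors (7.51% of all genes) and an increase of that size in 1 (9.71% of all genes). CQ and DMSO arrays did not overlap for 33 factors, 29 lower and 4 higher, where 73.7% of all genes did not overlap, 35.1% lower and 38.6% higher. Each difference compares a transcript with the rest of its array, and with no count of cells, the amount of a transcript per cell is not known.

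**Figure D1:**
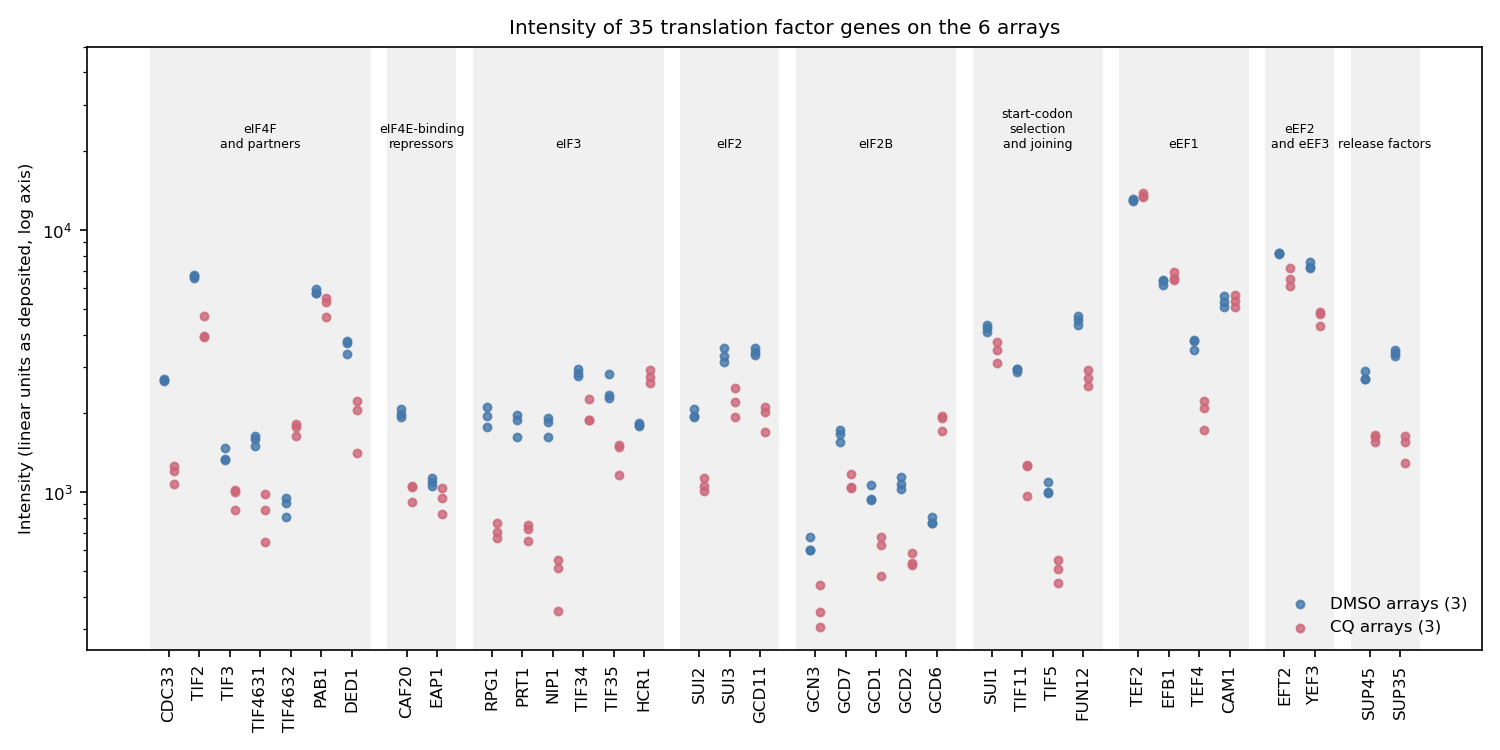
Intensity (linear units as deposited, on a log axis) of each measured translation factor gene, grouped by complex, with 1 point per array, 3 DMSO arrays in blue and 3 CQ arrays in red. The CQ points lie below the DMSO points for 29 genes, above them for TIF4632, HCR1, GCD6 and TEF2, and among them for EFB1 and CAM1.

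**Figure D2:**
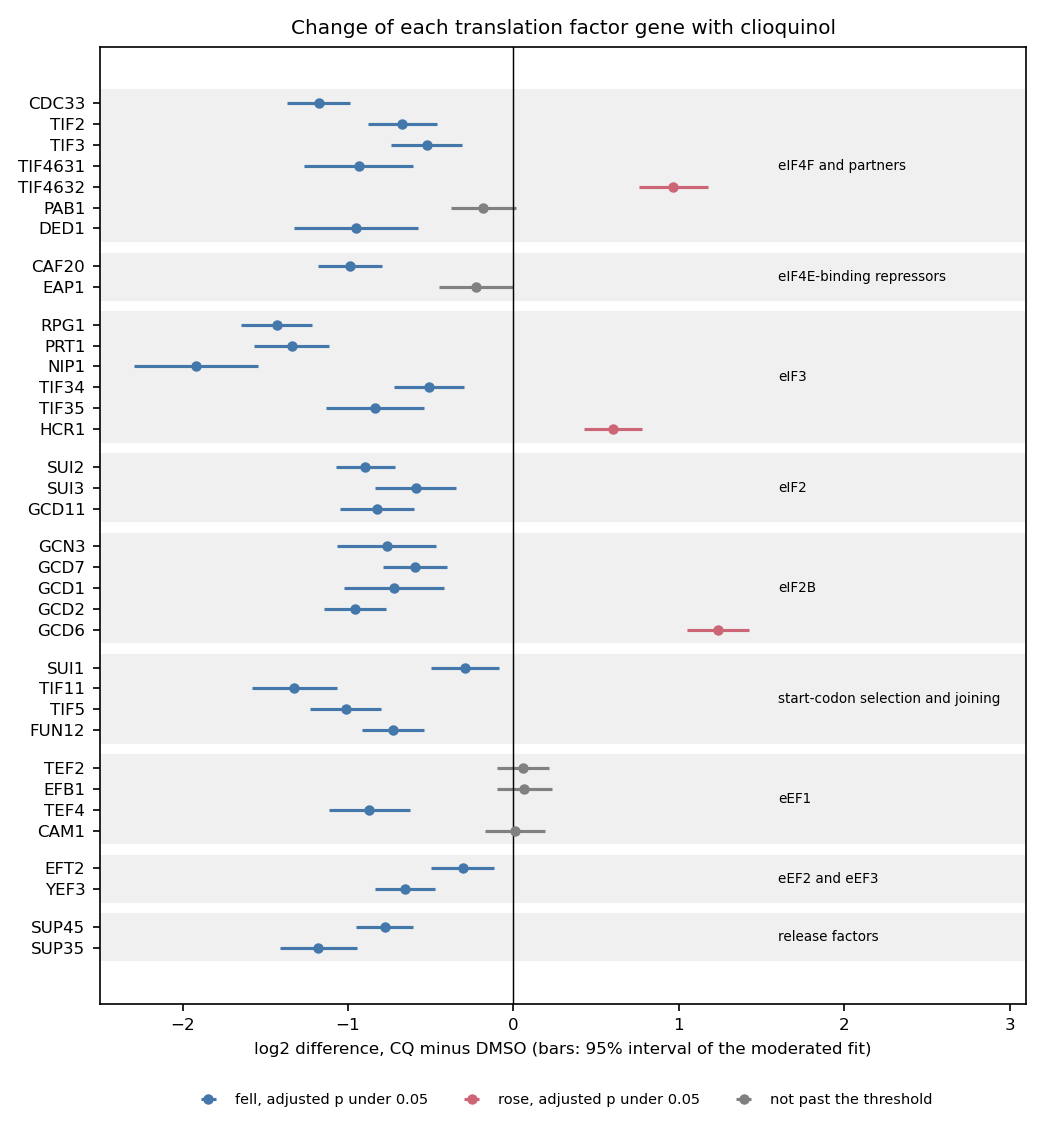
Log2 difference between CQ and DMSO for each of the 35 genes, with the 95% interval of the moderated fit over 3 arrays a group. The intervals of the 27 genes that fell lie below 0, those of TIF4632, HCR1 and GCD6 lie above 0, and the 5 genes in grey did not pass the threshold.

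The cap-binding complex eIF4F and its partners held both directions. Of the 7 measured, 5 were lower, 1 was higher and PAB1 did not pass, with a median log2 difference of -0.67. CDC33, which encodes the cap-binding protein eIF4E, read 2668, 2686 and 2696 with DMSO and 1265, 1205 and 1074 with CQ. The groups lay far apart, and CDC33 fell by 1.18 ± 0.08 on the log2 scale (standard error of the fit, adjusted p = 1.02e-05), or 2.26-fold.

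The scaffold eIF4G, which joins eIF4E, eIF4A and the poly(A)-binding protein, is encoded by a pair of paralogues that went opposite ways. TIF4631, for eIF4G1, read 1599.9, 1637 and 1502 with DMSO and 857, 649 and 983 with CQ, and fell by 0.94 ± 0.14 (adjusted p = 0.000583). TIF4632, for eIF4G2, read 951, 909 and 803 with DMSO and 1772, 1647 and 1826 with CQ, and rose by 0.97 ± 0.09 (adjusted p = 3.83e-05). No CQ array of either gene reached into the range of its DMSO arrays, and CQ replicate 2 was the lowest CQ array for both. When the index was added to the fit as a covariate, TIF4631 stood at -0.38 and did not pass (adjusted p = 0.0919), while TIF4632 stood at 1.06 (adjusted p = 0.00151). With the trend over gene length removed TIF4632 stood at 0.59 (adjusted p = 0.000578).

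Among the RNA helicases of scanning, TIF2, for eIF4A, read 6663, 6746 and 6599.6 with DMSO and 4713, 3957 and 3919.5 with CQ (-0.67 ± 0.09, adjusted p = 0.000299). DED1, a helicase that unwinds structured leaders, read 3717, 3773 and 3375 against 2064, 1409 and 2222 with CQ (-0.95 ± 0.16, adjusted p = 0.0011). TIF3, for the eIF4A stimulator eIF4B, fell by 0.52 ± 0.09. The groups did not overlap for any of these genes, and DED1 spread most widely over the CQ arrays, with CQ replicate 2 lowest. DED1 and TIF3 stood at -0.33 and -0.28 with the index as a covariate and did not pass there (adjusted p = 0.202 and 0.151).

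PAB1, which encodes the poly(A)-binding protein, read 5780.2, 5967 and 5785 with DMSO and 5509.8, 4658 and 5299 with CQ. Each CQ array lay below each DMSO array, but the difference of -0.18 (95% interval -0.38 to 0.01) did not pass (adjusted p = 0.0861). It passed under 4 of the 19 alternatives, with values from -0.32 to -0.18, and stood at 0.01 with the index as a covariate.

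Of the eIF4E-binding repressors, which compete with eIF4G for eIF4E, 1 fell and 1 did not pass. CAF20 read 2088, 1989 and 1943 with DMSO and 1057, 1047 and 916 with CQ, a decrease of 1.98-fold (-0.99 ± 0.08, adjusted p = 2.57e-05). EAP1 read 1056, 1092 and 1137 with DMSO and 949, 825 and 1040.1 with CQ (-0.23 ± 0.10, adjusted p = 0.0704). Its groups did not overlap by a narrow margin. EAP1 passed under 5 of the 19 alternatives, between -0.29 and -0.37, and stood at 0.12 with the index as a covariate.

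eIF3, the scaffold that binds the small subunit and most other initiation factors, had the lowest median of the 9 groups, -1.09, and the widest range. Of its 6 genes 5 fell and 1 rose. NIP1, for eIF3c, read 1917, 1860.1 and 1628 with DMSO and 550, 352 and 514 with CQ, a decrease of 3.78-fold (-1.92 ± 0.16, adjusted p = 2.42e-05). This was the largest difference among the 35 factors, and CQ replicate 2 was the lowest array. Without that array NIP1 stood at -1.73, and with the index as a covariate at -1.42.

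The other large core subunits followed. RPG1, for eIF3a, read 1780.0, 2124 and 1954 with DMSO and 765, 670 and 706 with CQ (-1.43 ± 0.09, adjusted p = 7.34e-06). PRT1, for the RNA-binding subunit eIF3b, read 1619, 1969 and 1889.6 against 749, 653 and 727 (-1.34 ± 0.10, adjusted p = 1.29e-05). For both genes every CQ array lay far below the lowest DMSO array.

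The small core subunits of eIF3 fell by less. TIF35, for eIF3g, went from 2487 ± 289 to 1388 ± 197 (standard deviations, n = 3 each; -0.84 ± 0.13, adjusted p = 0.000601), and TIF34, for eIF3i, from 2866 ± 88.9 to 2014 ± 216 (-0.51 ± 0.09, adjusted p = 0.00148). The 95% intervals of RPG1 (-1.64 to -1.22), PRT1 (-1.57 to -1.11) and NIP1 (-2.29 to -1.55) lay below that of TIF34 (-0.72 to -0.30), whereas the interval of TIF35 (-1.13 to -0.54) reached the upper end of that of PRT1. TIF34 did not pass with the index as a covariate (-0.47, adjusted p = 0.0563).

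HCR1 encodes eIF3j, which is bound loosely and is not part of the core. It read 1843, 1794 and 1808 with DMSO and 2935, 2754 and 2607 with CQ, and rose by 0.60 ± 0.08 (1.52-fold, adjusted p = 0.000199). Every CQ array lay above every DMSO array. HCR1 kept this direction and its call under all 19 alternatives, between 0.47 and 0.70.

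The genes of eIF2, which carries the initiator tRNA, fell together. SUI2, for the alpha subunit that Gcn2 phosphorylates, read 2083, 1961 and 1943 with DMSO and 1131, 1053 and 1015 with CQ (-0.89 ± 0.08, adjusted p = 2.68e-05). GCD11, for the GTP-binding gamma subunit, read 3437, 3566 and 3342 against 2031, 1704 and 2116 (-0.82 ± 0.10, adjusted p = 0.000138). SUI3, for the beta subunit, read 3321, 3554 and 3137 against 2219, 2497 and 1939 (-0.59 ± 0.11, adjusted p = 0.00144). No gene of the 3 had overlapping groups, and their 95% intervals overlapped one another. With the index as a covariate SUI3 stood at -0.98 and GCD11 at -0.52, both still past the threshold.

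In eIF2B, the exchange factor of eIF2, 4 genes fell and 1 rose. GCD6, for the catalytic epsilon subunit, read 765, 806 and 764 with DMSO and 1921, 1708 and 1951 with CQ. It rose 2.36-fold (1.24 ± 0.08, adjusted p = 7.42e-06) and was the largest increase among the factors. Its lowest CQ array was above 2 times its highest DMSO array.

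The other eIF2B subunits were lower. GCD1, for the gamma subunit that joins GCD6 in the catalytic subcomplex, read 944, 931 and 1068 with DMSO and 629, 479 and 673 with CQ (-0.72 ± 0.13, adjusted p = 0.00151). GCD2, for delta, read 1143, 1079.7 and 1026 against 586, 536 and 527 (-0.96 ± 0.08, adjusted p = 2.41e-05). Both had groups well apart. GCD7 for beta (-0.59 ± 0.08) and GCN3 for alpha (-0.77 ± 0.13), which with delta form the regulatory subcomplex, also fell. GCD1 and GCN3 stood at -0.18 and -0.56 with the index as a covariate, where neither passed (adjusted p = 0.289 and 0.0858), while GCD6 stood at 1.42.

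All 4 genes for start-codon selection and subunit joining fell, by unequal amounts. TIF11, for eIF1A, read 2879, 2963 and 2942 with DMSO and 1269, 1262 and 971 with CQ, a decrease of 2.51-fold (-1.33 ± 0.11, adjusted p = 2.45e-05). SUI1, for eIF1, which binds beside eIF1A, read 4231, 4365 and 4073 against 3504, 3756 and 3101 (-0.29 ± 0.09, adjusted p = 0.0197). The 95% intervals of these partners did not overlap (-1.58 to -1.07 and -0.50 to -0.08). SUI1 did not pass without DMSO replicate 1 (-0.29, adjusted p = 0.055) or 2 (-0.27, adjusted p = 0.0755), and stood at -0.58 with the index as a covariate.

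TIF5, for eIF5, which triggers GTP hydrolysis by eIF2, read 997, 1095 and 1007 with DMSO and 550, 452 and 512 with CQ (-1.01 ± 0.09, adjusted p = 3.64e-05). FUN12, for the subunit-joining GTPase eIF5B, read 4532, 4715 and 4336 against 2920.2, 2721 and 2548 (-0.73 ± 0.08, adjusted p = 0.000105). Their CQ arrays lay close to one another and below all DMSO arrays. FUN12 stood at -1.16 with the length trend removed.

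In elongation factor 1, 1 of 4 measured genes fell and 3 did not pass. TEF2, for eEF1A, which presents aminoacyl-tRNA, read 12975, 13148 and 13039.9 with DMSO and 13530.4, 13831 and 13380.2 with CQ (0.06, 95% interval -0.10 to 0.21, adjusted p = 0.473). It stood at 89.7 and 93.2% of the array maximum, where a difference can be understated, and its probe set is shared. EFB1, for the catalytic eEF1B subunit, read 6437, 6177 and 6415 with DMSO and 6917, 6571 and 6435 with CQ, with overlapping groups (0.07, interval -0.10 to 0.23, adjusted p = 0.433). At 43.6 and 45.6% of the array maximum it was not near the top of the scale.

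The gamma subunit of eEF1B is encoded by a pair of genes that responded unequally. TEF4 read 3773, 3502 and 3798 with DMSO and 2229, 2103 and 1730.2 with CQ (-0.87 ± 0.11, adjusted p = 0.000167). CAM1 read 5108, 5604 and 5331 against 5674, 5095 and 5373 (0.01, interval -0.17 to 0.19, adjusted p = 0.931). TEF4 fell without overlap, and the CAM1 groups overlapped almost entirely. The signs of TEF2, EFB1 and CAM1 turned with arrays centred on their median, with no call in any of them.

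The genes for eEF2 and eEF3 both fell. YEF3, for eEF3, read 7205, 7549 and 7259 with DMSO and 4874, 4799 and 4305 with CQ (-0.66 ± 0.08, adjusted p = 0.000158). EFT2, for eEF2, read 8102, 8207 and 8151 against 7204, 6122 and 6499 (-0.31 ± 0.08, adjusted p = 0.0109). Neither gene had overlapping groups. EFT2, on a shared probe set at 56% of the array maximum with DMSO, did not pass with the index as a covariate (-0.20, adjusted p = 0.306). With the length trend removed EFT2 stood at -0.62 and YEF3 at -1.11.

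The release factor genes fell as well. SUP35, for the GTPase eRF3, read 3305, 3494 and 3386 with DMSO and 1562, 1292 and 1639 with CQ, a decrease of 2.26-fold (-1.18 ± 0.10, adjusted p = 2.59e-05). SUP45, for eRF1, which recognises stop codons, read 2695, 2908 and 2716 against 1652, 1549.6 and 1625 (-0.78 ± 0.07, adjusted p = 4.16e-05). Each CQ array lay well below each DMSO array for both genes.

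The unequal response of partner genes was set out within each array, as the log2 value of one gene minus that of the other, for 3 pairs. TIF4631 minus TIF4632 was 0.74, 0.84 and 0.89 with DMSO and -1.03, -1.32 and -0.88 with CQ, a shift of -1.90. TEF4 minus CAM1 was -0.44, -0.68 and -0.49 with DMSO and -1.34, -1.27 and -1.63 with CQ, a shift of -0.88. CAF20 minus EAP1 was 0.97, 0.85 and 0.76 with DMSO and 0.15, 0.34 and -0.18 with CQ, a shift of -0.76. All 3 pairs separated the groups, and the exact two-sided permutation test gave p = 0.1 for each (0.1 also after Benjamini-Hochberg adjustment over the 3 pairs), the smallest value that 3 against 3 arrays allow, so that no pair could pass 0.05. The pair TIF1 and TIF2 could not be compared on a shared probe set.

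**Figure D3:**
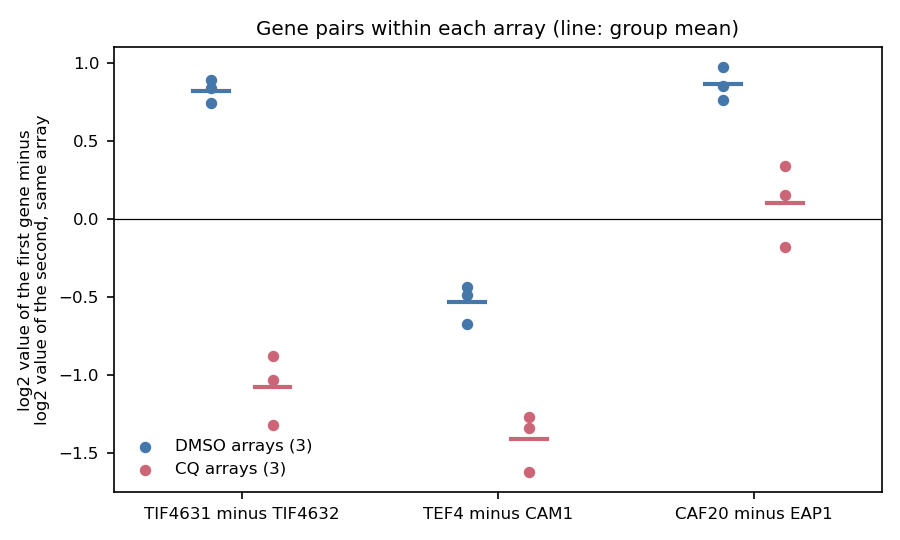
Log2 value of the first gene minus that of the second on the same array, for 3 pairs, with 3 DMSO arrays in blue, 3 CQ arrays in red and a line at each group mean. The groups do not overlap in any pair, and the shift is -1.90 for the eIF4G paralogues, -0.88 for the eEF1B gamma genes and -0.76 for the eIF4E-binding repressors.

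Averaged by group, the means lay below the DMSO level on each CQ array. The mean log2 value relative to DMSO was -0.77, -0.998 and -0.95 on CQ replicates 1, 2 and 3 for eIF3, and -0.93, -1.11 and -0.90 for the release factors. For eIF2B, with GCD6 included, it was -0.27, -0.47 and -0.34, and for eEF1 -0.12, -0.19 and -0.26. The eEF1 group lay nearest to its DMSO level on every CQ array, and its negative mean came from TEF4, the median of its 4 genes being 0.03. CQ replicate 2 was the lowest CQ array for 19 of the 35 factors (54.3%) and for 44.8% of all genes. Without it 27 factors fell and 3 rose, with a median of -0.68. The share of all genes called without that array is not given here.

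**Figure D4:**
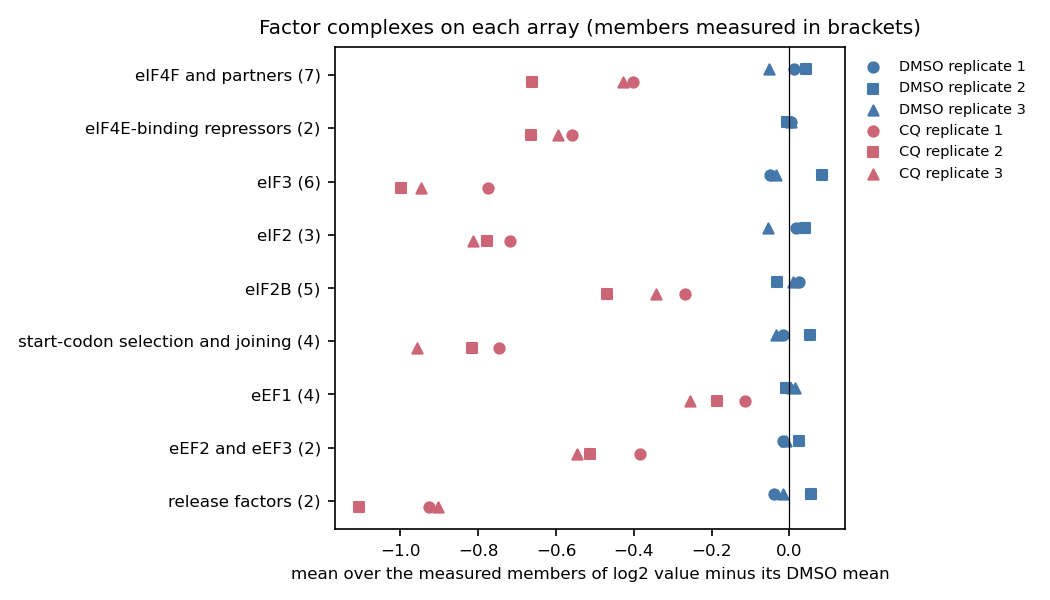
Mean over the measured genes of each group of the log2 value minus its DMSO mean, 1 symbol per array, DMSO in blue and CQ in red, with the number of genes in brackets. All CQ arrays lie left of all DMSO arrays in each group. The CQ values run from -0.12 to -0.26 in eEF1 and from -0.77 to -0.998 in eIF3. The release factors run from -0.90 to -1.11 and hold the lowest value.

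Gene length was set against the response as a description. Spearman's rho between log2 difference and gene length was -0.06 over the 35 factors, whose genes span 327 to 3135 bases in the RefSeq table, against 0.22 over all genes. These are descriptions across genes of the same arrays, and genes are not independent replicates. With the trend over gene length removed, 29 factors fell and 3 rose. The share of all genes called with that trend removed is not given here. The called values that moved by over 1.5 times were those of TIF4632, FUN12, EFT2 and YEF3 given above.

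With the index in the fit 20 factors fell and 3 rose, with a median of -0.66, and the 7 that no longer passed were TIF3, TIF4631, DED1, TIF34, GCN3, GCD1 and EFT2. The index was 0.40 higher with CQ than with DMSO on the log2 scale. The index did not overlap between the groups, so adding it can widen the standard errors. The values of the 7 also moved toward 0, by unequal amounts. TIF4631 went from -0.94 to -0.38, DED1 from -0.95 to -0.33 and GCD1 from -0.72 to -0.18. TIF3 went from -0.52 to -0.28, EFT2 from -0.31 to -0.20 and GCN3 from -0.77 to -0.56, while TIF34 changed little. The share of all genes called in that fit is not given here, so the 7 lost calls are not read as particular to those factors. The part of the index in the decreases was not tested beyond that fit.

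Related genes of protein synthesis were read in the same main fit, in which 31.9% of all genes fell, 36.1% rose and 68% were called. Of 127 cytosolic ribosomal protein genes 97 fell and 2 rose, with a median of -0.55. RPL13A (-1.51 ± 0.12) and RPL27B (-1.42 ± 0.11), of the large subunit, fell most, and RPS22B (1.13 ± 0.13) and RPS14B (0.69 ± 0.13), of the small subunit, rose. Of 20 measured cytosolic tRNA synthetase genes, whose products charge tRNAs, 18 fell and 0 rose, with a median of -0.87. The largest decreases there were in DED81 (-1.34 ± 0.10), for the asparaginyl-tRNA synthetase, and YHR020W (-1.18 ± 0.09), for the prolyl-tRNA synthetase. The medians of the factors, ribosomal proteins and synthetases were thus -0.73, -0.55 and -0.87, and no difference between them was tested. All 6 genes of factors that meet the nascent chain fell (median -0.87), led by SSZ1 (-1.10 ± 0.09), of the ribosome-associated chaperone complex, and EGD2 (-1.07 ± 0.12), of the nascent polypeptide-associated complex.

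Factors outside the 37 moved in both directions. Of 8 measured 5 fell, 2 rose and 1 did not pass. ANB1, an eIF5A gene expressed when oxygen or heme is low, read 4149, 3573 and 3899.9 with DMSO and 712, 879 and 437 with CQ, a decrease of 5.83-fold (-2.54 ± 0.22, adjusted p = 2.92e-05). HEF3, the paralogue of YEF3, read 560, 506 and 505 with DMSO and 1855, 1691 and 2209.5 with CQ, and rose 3.56-fold (1.83 ± 0.11, adjusted p = 5.15e-06). YEF3 and HEF3 thus went opposite ways, on probe sets without the mark for shared sequence. TIF6, for the large-subunit maturation factor eIF6, fell by 1.22 ± 0.18, and MBF1, a coactivator of Gcn4, rose by 0.24 ± 0.08.

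Ribosome recycling and rescue genes numbered 6, of which 3 fell, 1 rose and 2 did not pass. The share called, 66.7%, was near the 68% of all genes. RLI1, for the Fe-S ATPase that splits ribosomes after termination, read 1632, 1747 and 1713 with DMSO and 301, 212 and 277 with CQ. At 6.18-fold (-2.63 ± 0.12, adjusted p = 2.29e-06) its decrease exceeded that of every measured factor among the 37. TMA20, a recycling factor, fell by 0.42 ± 0.13, and TMA64, for eIF2D, rose by 0.55 ± 0.08. Of 9 genes that modify elongation factors or eIF5A 3 fell, 1 rose and 5 did not pass. The share that fell, 33.3%, was near the 31.9% of all genes, and the share called, 44.4%, was under 68%. LIA1, the iron enzyme that completes hypusine on eIF5A, fell by 0.96 ± 0.14, RRT2, of diphthamide synthesis, fell by 0.81 ± 0.10, and DPH5, of the same pathway, rose by 0.38 ± 0.09.

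In the Gcn2 pathway, which acts on eIF2 and eIF2B, 3 of 6 genes fell and 2 rose. These are 50% and 33.3%, against 31.9% and 36.1% of all genes. GCN2, the eIF2 kinase gene, read 838, 768 and 711 with DMSO and 1437, 1106 and 1462 with CQ (0.77 ± 0.12, adjusted p = 0.000768), and its activator gene GCN1 rose by 0.40 ± 0.09. GIR2, for a Gcn1-binding protein, fell by 1.03 ± 0.12. GCN4, the transcription factor whose translation rises when eIF2B is restrained, fell by 0.50 ± 0.08 in mRNA level. Mitochondrial translation factors were spread around 0 (median -0.08), with 2 of 8 lower and 2 higher. Each of these shares, 25%, was under that of all genes, 31.9% lower and 36.1% higher. MEF2, for a mitochondrial ribosome recycling GTPase, rose 2.93-fold (1.55 ± 0.11), and IFM1, the mitochondrial initiation factor gene, rose by 0.42 ± 0.10. RRF1 (-0.48 ± 0.12), for the mitochondrial recycling factor, and MEF1 (-0.26 ± 0.10), for the elongation factor, fell.

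**Figure D5:**
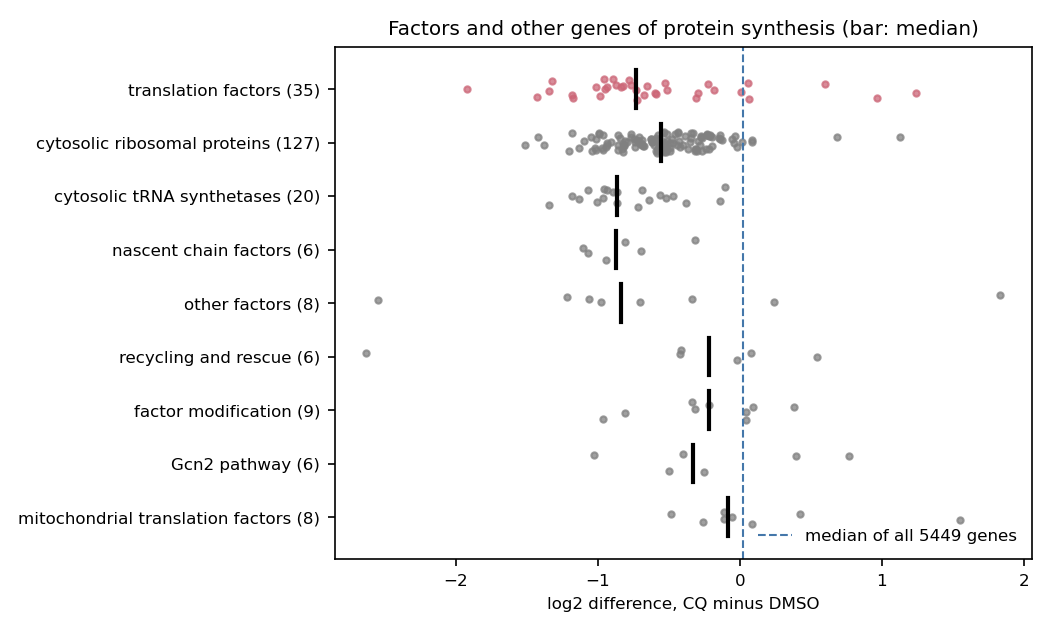
Log2 difference between CQ and DMSO for the 35 translation factor genes (red) and for genes of 8 related lists (grey), 1 point per gene with vertical jitter only for legibility, and a black bar at each median. The median is -0.73 for the factors, -0.55 for ribosomal proteins, -0.87 for tRNA synthetases and -0.08 for mitochondrial translation factors, and the dashed line marks the median of all 5449 genes, 0.02.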

How the data were processed

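Total RNA of 6 yeast cultures was measured on Affymetrix arrays. The authors deposited 1 linear intensity per probe set and array (10928 probe sets). How the scans were summarised and scaled is not given in the sources used here. Probe sets were named through the platform annotation and a RefSeq gene table, and each gene took its probe set with the highest mean (5449 genes). No sequences or coordinates are given. Values were used as log2(intensity + 16), which understates changes of dim genes, and fitted without covariates in limma 3.58.1 (lmFit, eBayes, two-sided; R 4.3.3) with Benjamini-Hochberg adjustment over all genes. Values after ± are standard errors for log2 differences and standard deviations for intensities. The number of arrays limits the precision. The fit was tested on simulated data with few genes changed and no difference in RNA integrity between groups. In these data most genes were called and the 3' to 5' index differed, so that test does not cover them. Members and lists were chosen with earlier results of these data known. All 37 factors were eligible to be named; of each related list, the 2 largest increases and 2 largest decreases past the threshold were named. RPP1, an RNase P gene, was left out of the ribosomal proteins that its symbol would place it in. The 19 alternatives covered scaling, pseudocount, filters, probe sets, variance moderation, a replicate block, the 3' to 5' index, gene length and each array left out. Plots used matplotlib 3.10.9.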

Additional observations from a re-analysis of the deposited data

Results flagged for a closer look

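Control probe sets for ribosomal RNA are not part of the gene comparison. Of 8 such probe sets for 25S rRNA, 4 read higher on all CQ arrays than on all DMSO arrays, which is the reason they are given here. The log2 differences, CQ minus DMSO, were 0.74 and 0.55 for segments c and d, 0.53 for the middle segment and 0.22 for the 3' segment. Segment c read 1948, 1636 and 1810 with DMSO and 3139, 2883 and 2995 with CQ. Another 2 of the 25S probe sets were lower without overlap, and all 8 probe sets for 18S rRNA were lower, by differences from -1.06 to -0.40. No test was run on these probe sets.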

How the results depend on the processing

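The 3 increases (TIF4632, HCR1 and GCD6) kept direction and call under all 19 alternatives, and 19 of the 27 decreases did under each alternative that measured them. The 8 others were the 7 named with the index as a covariate and SUI1, which was lost without DMSO replicate 1 or 2. The count of decreases ran from 20, with the index as a covariate, to 29. The median of the members, -0.73, moved to -0.83 with quantile normalization and to -0.86 with arrays centred on their median, which put the median of all genes at -0.11. Signs turned for members that had not passed, and no turned value passed: TEF2 (-0.0786), EFB1 (-0.0696) and CAM1 (-0.13) with median centring, TEF2 (-0.0032) and CAM1 (-0.0516) with centring on the 75th percentile, PAB1 (0.0119) and EAP1 (0.12) with the index as a covariate, and CAM1 from -0.0304 to 0.047 over arrays left out in turn. The cause was not tested. With the replicate block 27 members fell and 3 rose. Shares of all genes called under the alternatives are not given here, so these counts are set only against those of the main fit. Deviations of same-numbered arrays correlated at 0.05, 0.12 and 0.14, so the numbers were not taken as pairs. The pair differences kept their sign wherever recomputed; the variance settings, the block and the covariate have no counterpart there. Saturation near the top of the scale limits TEF2.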
